A study of Mus musculus with 8 samples.

Results

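The mitotic spindle, kinesin and cytokinesis genes were taken as a list of 50 genes by name, and their probe sets were found by the platform's gene symbols. Of the 50, 45 had at least 1 probe set with their symbol alone, 78 probe sets in all, among 22626 probe sets for 12393 named genes. Ccnb1, Kif15, Kif20b, Cdca8 and Espl1 were not analysed here. TTE3 is a line of mouse testicular Sertoli cells, the somatic cells that support germ cells in the seminiferous tubule. It was made from mice with a transgene for the SV40 large T-antigen in a temperature-sensitive form, which every sample shares and for which 39 °C is the nonpermissive temperature. Total RNA taken after 0, 6, 12 and 24 h at 39 °C was measured on the Affymetrix 430A array, with 2 arrays per time and 8 in all. Separate cultures are not stated for the arrays of a time, and the spread behind each p-value can therefore be technical. Temperature, hours in culture and T-antigen state change together after 0 h and cannot be told apart.

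Mitosis is run by kinases that switch on at its start, above all CDK1 with B-type cyclins, PLK1 and the Aurora kinases. Kinesins and other microtubule-binding proteins build the bipolar spindle, kinetochores tie chromosomes to it, condensins compact the chromosomes, and a central spindle then directs the cleavage of the cell. Most of these genes are transcribed in the G2 and M phases of the cell cycle, so their level in a culture depends in part on how many cells are dividing. FOXM1, B-MYB and NF-Y promote this transcription, and the DREAM repressor complex, which acts downstream of p53 and p21, holds it down through short promoter elements.

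The arrays had median signals between 138 and 154 units, and every array had been scaled to the same trimmed mean. Of 16 Sertoli marker genes 15 had a probe set, and 8 passed the filter on dim probe sets. These were Gata4 (mean signal 524), Kitl (1563), Tjp1 (2044), Clu (2205), Inhbb (263), Sox9 (153), Wt1 (133) and Inha (106). Fshr (37.2), Rhox5 (35.2) and Shbg (38.0) did not pass it. Nor did Amh (8.16), Gdnf (10.6), Cldn11 (14.6) and Dmrt1 (21.3), which lay under 21.9 units, the 20th percentile of all values. The summed Sertoli markers ran from 5947 to 6217 units at 0 h, 6503 to 7358 at 6 h, 6733 to 7294 at 12 h and 8219 to 8971 at 24 h. The higher sum at 24 h came mainly through Clu, which averaged 1366 units at 0 h and 3764 at 24 h. Tjp1 went from 2105 to 1926 and Wt1 from 171 to 139, so the sums do not show a rise of the whole list. Of 8 germ cell markers, 0 passed the filter on dim probe sets, and their sums lay between 149 and 306 units over all arrays. Steroidogenic markers summed to 248 and 326 units at 24 h, against 96.8 and 158 at 0 h, through Star, while Cyp11a1 (7.34) and Cyp17a1 (10.3) stayed under the 20th percentile. The part of these markers in the results below was not tested. In bulk RNA, fewer dividing cells and less RNA per dividing cell cannot be told apart.

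At 24 h 17 of the 45 mitotic genes were lower than at 0 h, among them Foxm1, Plk1, Cenpa, Kif23 and Racgap1, and 2, Ckap2 and Kifc1, were higher there and at 6 and 12 h. Of all tested probe sets 15.8% were lower and 17.1% higher at 24 h. At 6 h and at 12 h against 0 h 36 of 45 genes did not pass, and the 20% called at each lay near the 18.0% and 24.0% of all probe sets. Between 24 h and 0 h the log2 change ran from -0.96 for Kif23 to 1.25 for Ckap2, with a median of -0.28 over the 45 genes, beside 0.02 over all 13576 probe sets tested. All 45 genes passed the filter on dim probe sets through at least 1 probe set, and 72 of their 78 probe sets did. Each gene is given by its brightest probe set unless others are named. By mean log2 level, 24 of 45 genes (53.3%) were highest at 12 h, beside 18.3% of all tested probe sets, and 28 (62.2%) were lowest at 24 h, beside 26.3%. The lowest level fell at 12 h for 0 genes, and only Ect2 was highest at 24 h.

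**Figure D1:**
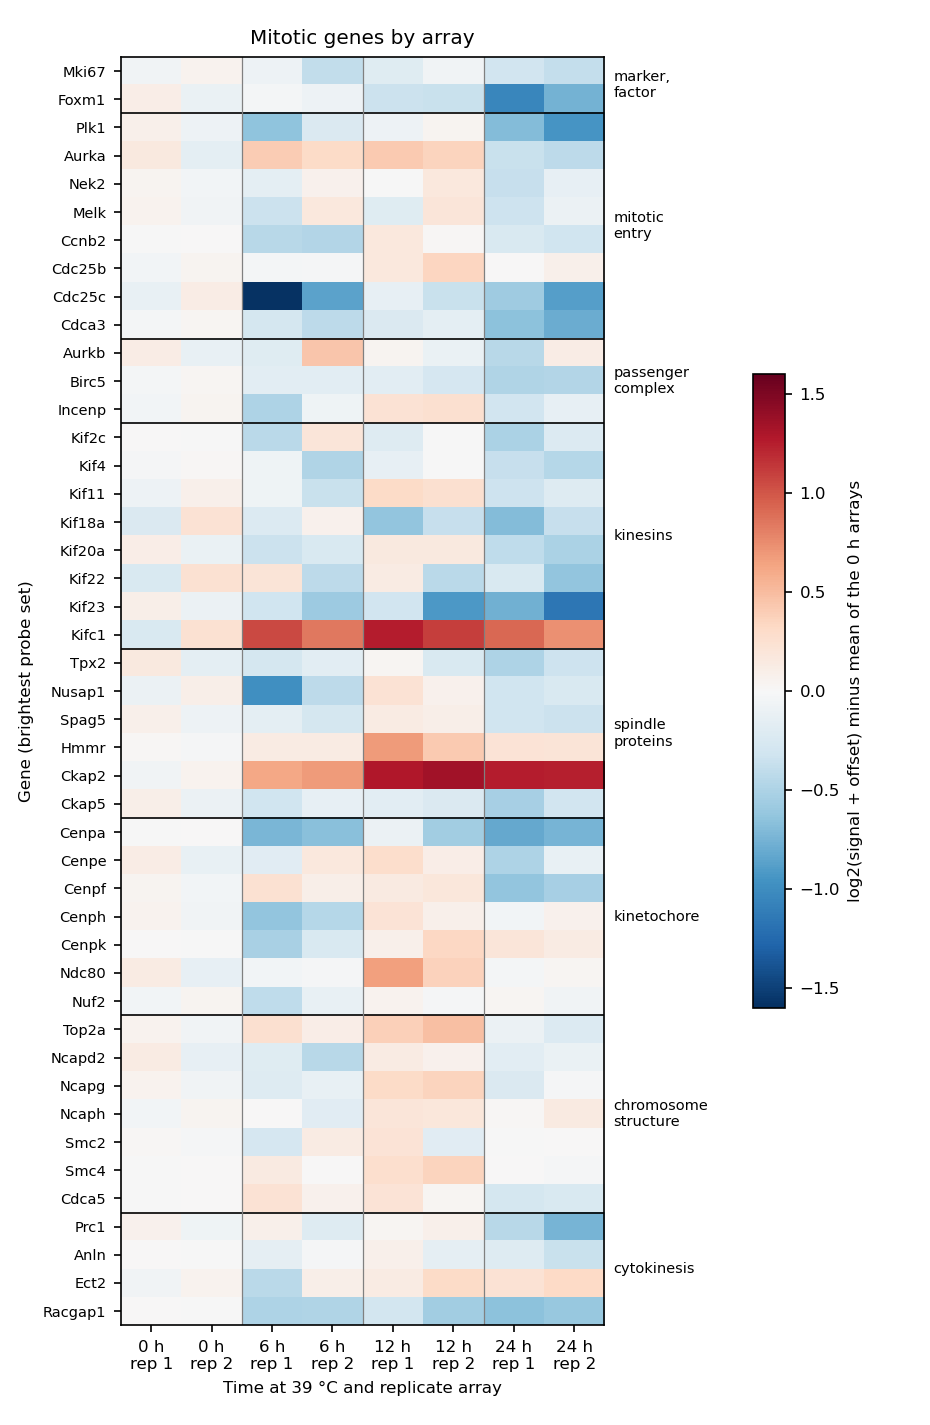
Level of 45 mitotic genes on each of the 8 arrays, as log2(signal + offset) minus the mean of the 0 h arrays. Rows are genes by role and columns are arrays in order of hours at 39 °C. Ckap2 and Kifc1 are red at 6, 12 and 24 h, many rows are red at 12 h and most are blue at 24 h.

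Calls below are moderated tests in limma at an adjusted p below 0.05, with Benjamini-Hochberg adjustment over all 13576 probe sets. At 6 h against 0 h, 2 of the 45 genes were higher and 7 lower, beside 8.65% and 9.33% of all probe sets, with a median log2 change of -0.16. At 12 h against 0 h, 7 were higher and 2 lower, beside 12.1% and 11.9%, with a median of 0.09, which was 0.05 without 0 h replicate 2 and 0.03 with arrays centred on their medians, a scaling under which the median of all probe sets was -0.05. At 24 h against 0 h, 2 were higher and 17 lower, 42.2% of the genes together, beside 17.1%, 15.8% and 32.9% of all probe sets. From 6 to 12 h, 12 were higher and 0 lower at 12 h, beside 4.61% and 3.71%. From 12 to 24 h, 0 were higher and 14 lower at 24 h, beside 3.77% and 3.11%. The shares called in the steps after 6 h, 26.7% and 31.1%, lay above 8.32% and 6.88%. In the F-test over the 4 times 27 of 45 (60%) were called, beside 40.1% of all probe sets. The 45 genes stand by their brightest probe set, while these shares count every probe set. By the brightest probe set of all 7707 tested genes, 18.5%, 25.3% and 35.2% were called at 6, 12 and 24 h against 0 h. In the steps after 6 h 8.54% and 7.38% of those genes were called, and in the F-test 42.1%. Comparisons with 0 h share the 0 h arrays, and the steps after 6 h share the 12 h arrays, so they are not independent of each other.

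**Figure D2:**
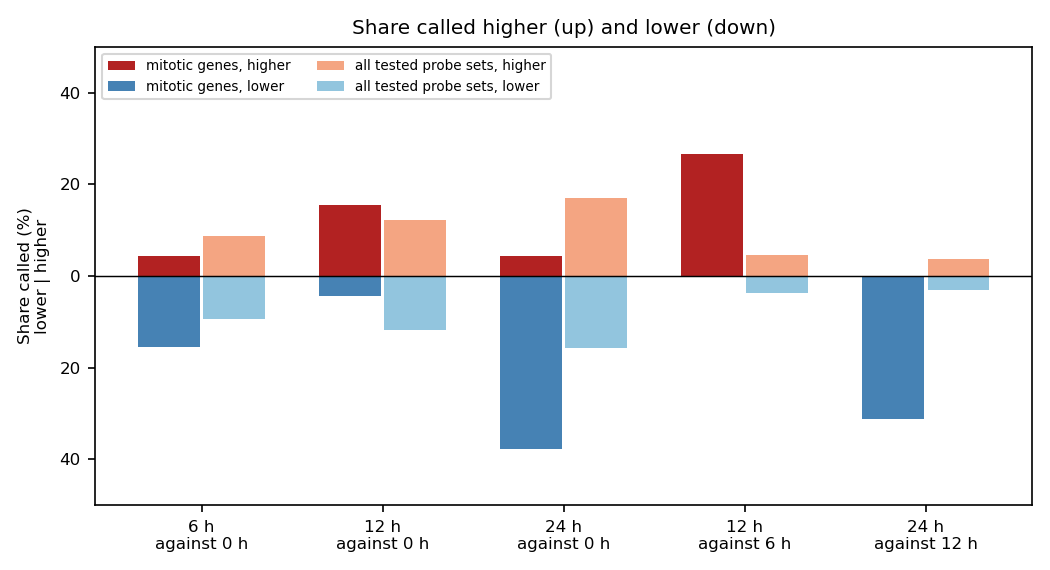
Share of 45 mitotic genes (dark bars) and of all 13576 tested probe sets (light bars) called higher, drawn upward, or lower, drawn downward, in 5 comparisons. In the step from 6 to 12 h 26.7% of the mitotic genes were higher, and in the step from 12 to 24 h 31.1% were lower.

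How far these calls held under other settings differed between comparisons. At 24 h against 0 h, 10 of 19 genes (Foxm1, Plk1, Cdca3, Birc5, Kif23, Kifc1, Ckap2, Cenpa, Cenpf and Racgap1) kept their call under all 17 alternative settings, among them leaving out each array in turn. The count of called genes was 10 when 0 h replicate 1 was left out, 12 with 24 h replicate 1 left out and 11 without 24 h replicate 2. At 6 h against 0 h, 3 of 9 (Kifc1, Ckap2 and Cenpa) kept it, with 4 genes called without 0 h replicate 1, 3 when its partner array was left out and 14 without 6 h replicate 2. At 12 h against 0 h, 3 of 9 (Kifc1, Hmmr and Ckap2) kept it, with 3 called without 0 h replicate 2 and 4 without 12 h replicate 2. In the steps, Ckap2 alone kept its call from 6 to 12 h and Cenpf alone from 12 to 24 h. From 6 to 12 h the count was 2 without 12 h replicate 1, 6 without 6 h replicate 1 or either 0 h array, and 7 without 12 h replicate 2 or either 24 h array. From 12 to 24 h it was 1 without 24 h replicate 2, 3 without 12 h replicate 2, 5 without the other array of either time, and 7 without either 0 h array. The median of the 45 genes was -0.31 and -0.24 on the arrays at 24 h, and 0.13 and 0.07 at 12 h, relative to the 0 h mean, so both arrays of each time lay on the same side.

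The choice of the list did not use promoter letters, but the elements searched are known from cell cycle genes. A high share in a list of mitotic genes was therefore likely beforehand. RefSeq promoter windows of GRCm38.p6, from 250 bases before to 50 after an annotated start, were matched for 38 of the 45 genes, giving 42 windows. The cell cycle genes homology region (CHR), searched as TTTGAA or TTCGAA on either strand, is bound by the DREAM and MuvB complexes, and the CCAAT box, searched as CCAAT on either strand, by NF-Y. The letters of a CHR stood in 30 of 42 windows (71.4%), beside 12.9% of 8173 windows of the other tested genes and 19.2% of all 32851 windows. CCAAT stood in 32 (76.2%), beside 37.4% of the other tested genes and 37.4% of all windows. Both stood in 26 (61.9%), beside 5.05% and 7.52%. Both stood in a window of 12 of 13 matched genes lower at 24 h than at 0 h, 5 of 9 higher at 12 h than at 6 h, and 7 of 16 in neither set. By windows these counts were 13 of 14, 5 of 11 and 8 of 17, with 3 windows for Cenpk and 2 each for Prc1 and Ect2. The 16 genes in neither set are not a set of unchanged genes, since Kifc1, Top2a and Cdca5 among them were called in other comparisons. A match is a description of the letters and shows no binding.

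**Figure D3:**
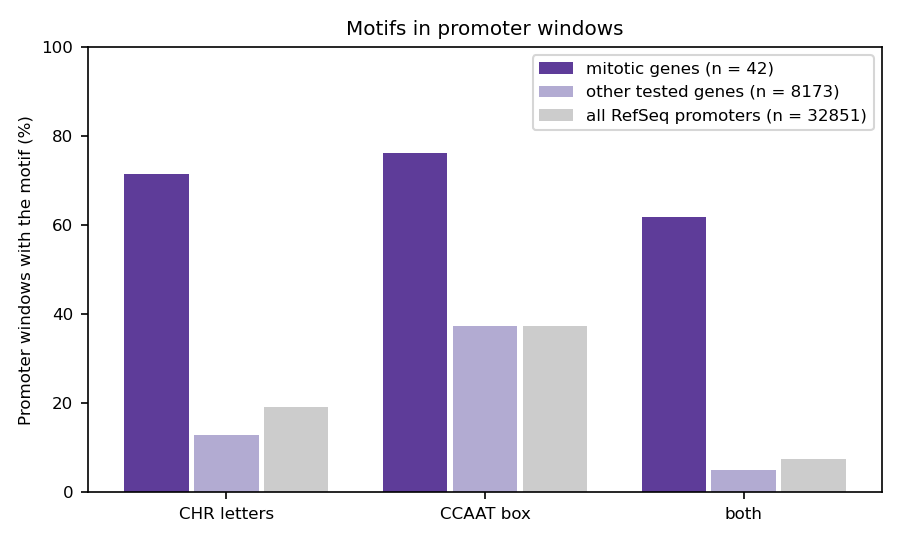
Share of promoter windows that hold the letters of a CHR, a CCAAT box or both, for the mitotic genes (42 windows), the other tested genes (8173) and all RefSeq windows (32851). Windows with both make up 61.9%, 5.05% and 7.52%.

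Stretches of 6 of these windows are shown because they set the genes that rose beside genes that fell, with matches to either motif in capitals. Each runs 5′ to 3′ on the strand of the gene, from 120 bases before the start to 30 after it. Ckap2 and Kifc1 are the genes with the largest rises, Kif23 and Plk1 are among the largest falls, and Cenpf and Racgap1, which also fell, were added after their values were seen. The stretches lie at chr8:22185790-22185939 (minus strand) for Ckap2, chr17:33890604-33890753 (minus) for Kifc1 and chr9:61946770-61946919 (minus) for Kif23. Those of Plk1, Cenpf and Racgap1 lie at chr7:122159315-122159464 (plus), chr1:189688057-189688206 (minus) and chr15:99651627-99651776 (minus), all in GRCm38.p6.
Ckap2: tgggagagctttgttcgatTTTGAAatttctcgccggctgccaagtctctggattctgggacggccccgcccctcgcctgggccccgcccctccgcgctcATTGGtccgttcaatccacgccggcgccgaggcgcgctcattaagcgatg
Kifc1: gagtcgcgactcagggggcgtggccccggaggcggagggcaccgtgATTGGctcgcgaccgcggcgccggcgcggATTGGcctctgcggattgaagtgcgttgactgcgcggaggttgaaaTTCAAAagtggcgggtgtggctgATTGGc
Kif23: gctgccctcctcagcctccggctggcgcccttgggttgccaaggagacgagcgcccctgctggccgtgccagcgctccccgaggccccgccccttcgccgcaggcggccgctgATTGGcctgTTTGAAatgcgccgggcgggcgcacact
Plk1: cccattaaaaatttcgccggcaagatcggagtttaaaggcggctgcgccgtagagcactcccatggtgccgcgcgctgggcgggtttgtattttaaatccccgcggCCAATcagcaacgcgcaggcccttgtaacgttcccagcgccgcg
Cenpf: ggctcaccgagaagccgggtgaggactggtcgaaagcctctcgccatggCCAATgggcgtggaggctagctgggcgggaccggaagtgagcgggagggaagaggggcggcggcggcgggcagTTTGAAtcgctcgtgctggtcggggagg
Racgap1: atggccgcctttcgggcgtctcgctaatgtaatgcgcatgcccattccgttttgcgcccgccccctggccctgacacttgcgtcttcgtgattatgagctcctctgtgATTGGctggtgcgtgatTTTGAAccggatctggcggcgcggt
In Kif23, Cenpf and Racgap1 the CHR letters begin 2 to 5 bases after the annotated start, and in Kifc1 1 base after it. The match in Plk1 begins 30 bases after the start, outside the stretch shown. The start itself is counted as 0. In Ckap2 it lies 101 bases before the start and a CCAAT match 20 bases before it. Only windows with both kinds of letters could be chosen for display, so their presence in genes that rose and genes that fell is no result.

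Mki67, which encodes the proliferation marker Ki-67, moved little. Its signal was 3152 and 3401 units at 0 h, 3094 and 2491 at 6 h, 2850.0 and 3161 at 12 h, and 2638 and 2502 at 24 h. Both 24 h arrays lay below both 0 h arrays, 1.27-fold on average (log2 change -0.35 ± 0.12, SE, adjusted p = 0.0386). That call ended in 7 of 17 alternatives, with adjusted p = 0.0977 without 0 h replicate 1, 0.212 when 0 h replicate 2 was left out, 0.101 with 24 h replicate 1 left out and 0.186 without 24 h replicate 2. Foxm1, the transcription factor that drives many genes of this list, declined further. It had 495 and 425 units at 0 h, 448 and 432 at 6 h, 357 and 352 at 12 h, and 210.5 and 262 at 24 h. The 24 h arrays were the lowest and the 12 h arrays stood between them and the earlier times. The fall at 24 h against 0 h was 1.87-fold (-0.90 ± 0.14, adjusted p = 0.000668). Its other 2 tested probe sets had log2 changes of -0.35 and -0.38 at 24 h that did not pass.

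**Figure D4:**
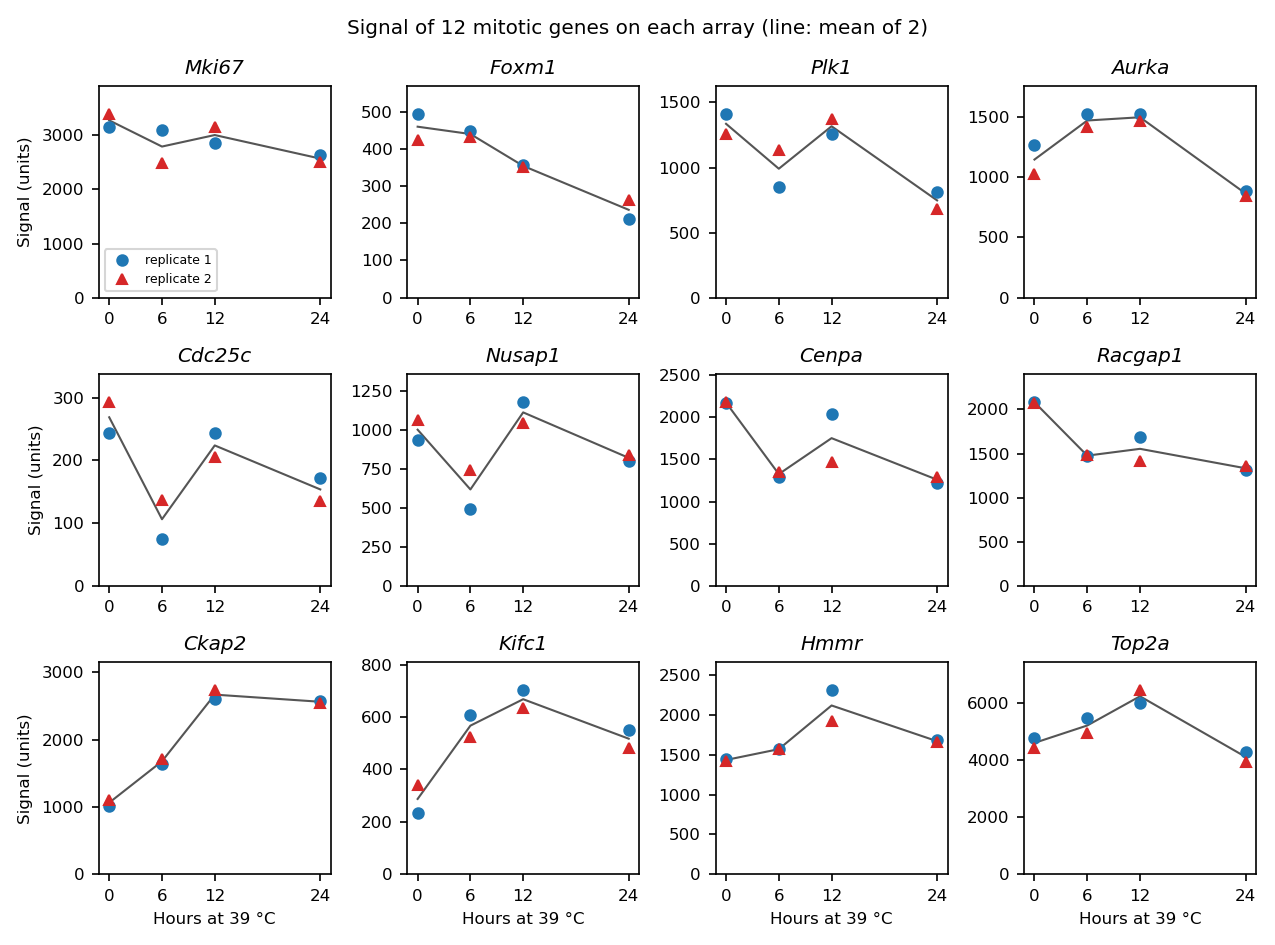
Signal in units of 12 mitotic genes on each array against hours at 39 °C, with circles for replicate 1, triangles for replicate 2 and a line through the mean of both. Foxm1 declines to 24 h, Cdc25c and Nusap1 dip at 6 h, Hmmr and Top2a peak at 12 h, and Ckap2 stays high from 12 h on.

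Among genes of mitotic entry 3 of 8 were lower at 6 h and 4 of 8 at 24 h than at 0 h, and 1, Aurka, was higher at 12 h. Plk1, the polo-like kinase of mitotic entry and spindle assembly, had 1414 and 1257 units at 0 h, 848 and 1134 at 6 h, 1259 and 1375 at 12 h, and 813 and 682 at 24 h. Its 12 h arrays stood level with 0 h and its 24 h arrays below all others. The fall at 24 h was 1.77-fold against 0 h (-0.82 ± 0.15, adjusted p = 0.00139) and 1.75-fold against 12 h (adjusted p = 0.0106, but 0.0729 without 12 h replicate 2 and 0.11 without 24 h replicate 2). Aurka, the Aurora kinase of centrosomes and spindle poles, had 1269 and 1026 units at 0 h, 1522 and 1422 at 6 h, 1529.7 and 1469 at 12 h, and 885 and 847 at 24 h. All 4 arrays of 6 and 12 h lay above the 0 h arrays, and both 24 h arrays lay below them. Aurka was 1.71-fold lower at 24 h than at 12 h (-0.78 ± 0.12, adjusted p = 0.00407, but 0.0612 without 24 h replicate 2). Against 0 h it was higher at 12 h (0.39 ± 0.12, adjusted p = 0.0325, but 0.283 without 0 h replicate 2, and 0.127 or 0.0858 with 12 h replicate 1 or 2 left out) and lower at 24 h (-0.39 ± 0.12, adjusted p = 0.0235, but 0.245 without 0 h replicate 1, and 0.078 or 0.128 with 24 h replicate 1 or 2 left out).

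Cdc25c, the phosphatase that activates CDK1, had the deepest drop at 6 h. It had 244 and 294 units at 0 h, 75 and 138 at 6 h, 243 and 205 at 12 h, and 173 and 135 at 24 h. The 6 h arrays differed from each other by more than those of any other time, and neither overlapped the 0 h arrays. The fall at 6 h was 2.33-fold (-1.22 ± 0.24, adjusted p = 0.00584, but 0.0626 without 0 h replicate 2), and 12 h was 1.97-fold above 6 h (adjusted p = 0.0308, but over 0.05 in 8 alternatives, up to 0.128 without 12 h replicate 1). At 24 h against 0 h the change was -0.73 ± 0.24 (adjusted p = 0.0358, but over 0.05 without any 1 of the 4 arrays of those times, up to 0.21 without 24 h replicate 2). Ccnb2, the B2 cyclin, dipped in the same way with tight replicates, at 1389 and 1396 units at 0 h, 1016 and 999 at 6 h, 1562 and 1405 at 12 h, and 1172 and 1116 at 24 h. It was lower at 6 h than at 0 h (-0.46 ± 0.10, adjusted p = 0.00967, but 0.0759 without either 0 h array) and higher at 12 h than at 6 h (0.55 ± 0.10, adjusted p = 0.00943, but 0.061 without 12 h replicate 1 and 0.068 with only those times fitted). Cdca3, a trigger of mitotic entry, had 2149.9 and 2258 units at 0 h, 1804 and 1648 at 6 h, 1867 and 1970.0 at 12 h, and 1388 and 1265 at 24 h. Both 24 h arrays lay below all others. It fell 1.65-fold at 24 h against 0 h (-0.72 ± 0.10, adjusted p = 0.000271). Its fall at 6 h (-0.35 ± 0.10, adjusted p = 0.0322) ended in 6 of 17 alternatives, with adjusted p = 0.124 and 0.191 without 0 h replicate 1 and 2 and 0.0755 without 6 h replicate 2. The kinase genes Nek2 (-0.25 ± 0.15) and Melk (-0.21 ± 0.18) and the phosphatase gene Cdc25b (0.04 ± 0.15) did not pass at 24 h or in any other comparison.

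Of the chromosomal passenger complex, which corrects attachments at the inner centromere and then acts at the central spindle, 1 of 3 genes was called at 24 h against 0 h. Birc5, which encodes its subunit survivin, had 4376 and 4585 units at 0 h, 3989 and 3979 at 6 h, 3983 and 3704 at 12 h, and 3195 and 3224 at 24 h. Levels at 6 and 12 h lay between those of 0 and 24 h, and the fall at 24 h was 1.39-fold (-0.48 ± 0.09, adjusted p = 0.00178). The scaffold gene Incenp was higher at 12 h than at 6 h (0.53 ± 0.13, adjusted p = 0.0318, a call that ended in 10 of 17 alternatives, 7 of them the loss of 1 array, up to 0.131 without 12 h replicate 2). Its brightest probe set was not called at 24 h against 0 h (-0.22 ± 0.13), while its other 2 were, at -0.40 ± 0.14 and -0.50 ± 0.13. The kinase gene Aurkb was at -0.16 ± 0.21 at 24 h, with arrays as far apart as 1334 and 2087 units at 6 h. Its dimmer probe set fell between 12 and 24 h (-0.73 ± 0.16, adjusted p = 0.0216).

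The kinesins split, with 1 of 8 higher and 3 lower at 24 h than at 0 h. Kifc1, the minus-end-directed kinesin-14 that bundles spindle poles, had 235 and 339 units at 0 h, 609 and 525 at 6 h, 703 and 633 at 12 h, and 552 and 483 at 24 h. Every later array stood above both 0 h arrays. The rise was 1.93-fold at 6 h (0.95 ± 0.17, adjusted p = 0.00313), 2.26-fold at 12 h (1.18 ± 0.17, adjusted p = 0.000589) and 1.77-fold at 24 h (0.82 ± 0.17, adjusted p = 0.00303). Kif23, the MKLP1 motor of the central spindle, went the other way, with 1021 and 892 units at 0 h, 758 and 631 at 6 h, 768 and 496 at 12 h, and 553 and 417 at 24 h. No later array reached the 0 h arrays, and the fall was 1.94-fold at 24 h (-0.96 ± 0.20, adjusted p = 0.00338). At 12 h it was 1.53-fold (adjusted p = 0.0431, but 0.229 when 0 h replicate 1 was left out, 0.102 with replicate 2 of that time left out and 0.309 without 12 h replicate 2). A dimmer Kif23 probe set fell by 0.60 ± 0.19 on the log2 scale at 24 h (adjusted p = 0.0282) and was level with 0 h at 12 h (-0.01 ± 0.19).

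Kif20a, the MKLP2 motor that carries the passenger complex to the central spindle, had 1582 and 1356 units at 0 h, 1147 and 1234 at 6 h, 1636 and 1629 at 12 h, and 1100.2 and 1021 at 24 h. The arrays of 6 and 24 h were low and those of 12 h high. From 6 to 12 h it rose (0.45 ± 0.11, adjusted p = 0.029), a call that ended in 8 of 17 alternatives. It was 1.53-fold lower at 24 h than at 12 h (-0.61 ± 0.11, adjusted p = 0.00911, but from 0.0509 to 0.101 without any 1 of the 4 arrays of those times) and 1.37-fold lower than at 0 h (adjusted p = 0.00731, but 0.0983 without 0 h replicate 1 and 0.0696 without 24 h replicate 2). Kif11, the Eg5 motor that pushes spindle poles apart, averaged 766 ± 64.9 units at 0 h, 662 ± 94.7 units at 6 h, 933 ± 23.9 units at 12 h and 631 ± 41.2 at 24 h (SD, n = 2 each). It was higher at 12 h than at 6 h (0.49 ± 0.13, adjusted p = 0.0382, a call that ended in 11 of 17 alternatives, up to 0.129 without 12 h replicate 1) and lower at 24 h than at 12 h (-0.55 ± 0.13, adjusted p = 0.0274, a call that ended in 8 of 17, up to 0.184 without 24 h replicate 1). The chromokinesin gene Kif4 fell at 24 h against 0 h (-0.42 ± 0.15, adjusted p = 0.0499), a call that ended in 9 of 17 alternatives, 6 of them the loss of 1 array of 0, 12 or 24 h, with adjusted p up to 0.208 without 24 h replicate 2. Kif22, another chromokinesin, had 2594 and 3629.7 units at 0 h, 3546 and 2297 at 6 h, 3363 and 2271 at 12 h, and 2579 and 1965 at 24 h. Its replicates lay so far apart that no comparison passed (-0.44 ± 0.24 at 24 h). Kif2c, a microtubule depolymerase, at -0.36 ± 0.18, and Kif18a, which limits chromosome movements, at -0.53 ± 0.21, did not pass either, but 2 dimmer Kif2c probe sets were called lower at 24 h (-0.42 and -0.36).

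**Figure D5:**
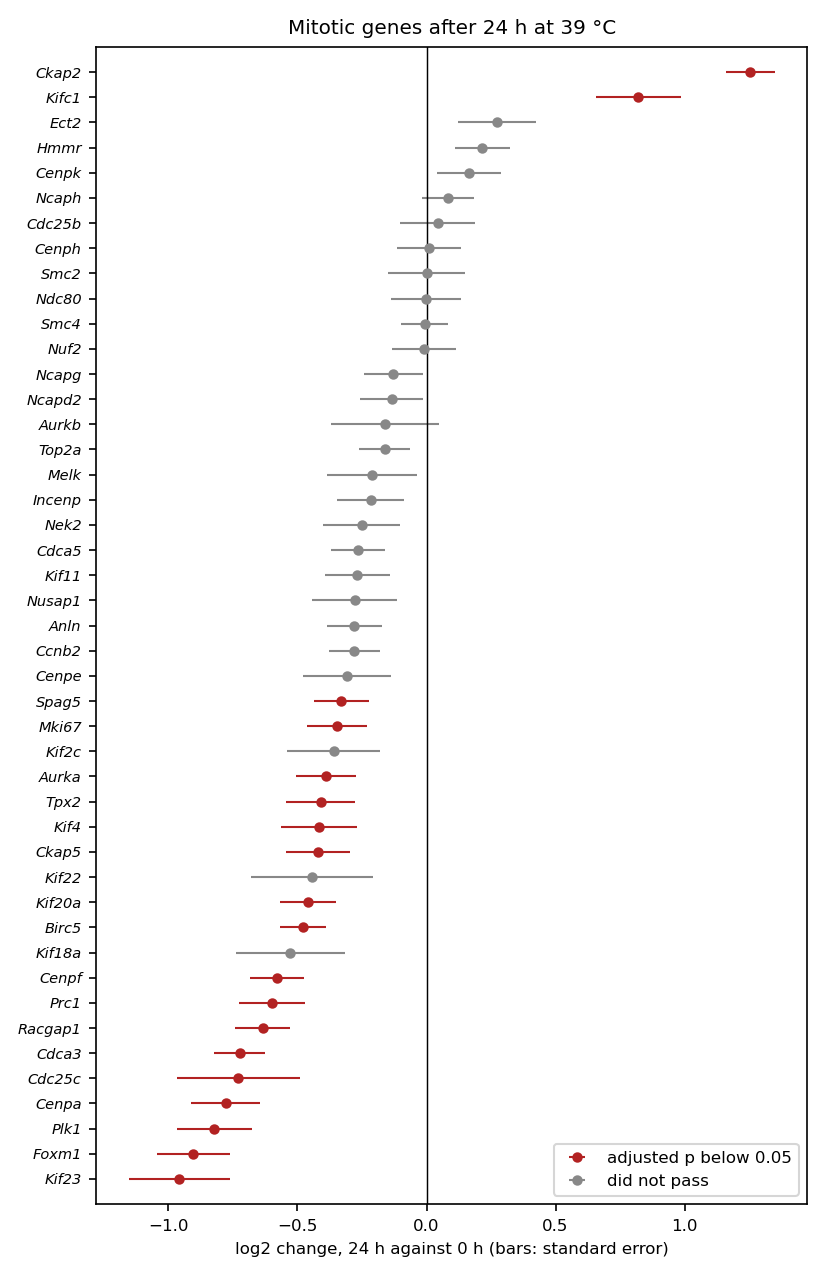
Log2 change at 24 h against 0 h for 45 mitotic genes, with bars for the standard error of the fit. Red points passed at adjusted p below 0.05, with 2 genes higher (Ckap2 and Kifc1) and 17 lower, down to -0.96 for Kif23.

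Spindle-associated proteins held the largest rise of the list. Ckap2, which encodes a spindle protein that promotes microtubule nucleation, had 1018 and 1105 units at 0 h, 1641 and 1712 at 6 h, 2599.5 and 2736 at 12 h, and 2574 and 2548 at 24 h. The arrays of 6 h stood above those of 0 h, and those of 12 and 24 h above those of 6 h. The rise against 0 h was 1.57-fold at 6 h (0.65 ± 0.09, adjusted p = 0.00114), 2.48-fold at 12 h (1.31 ± 0.09, adjusted p = 7.82e-06) and 2.39-fold at 24 h (1.25 ± 0.09, adjusted p = 4.85e-06). Hmmr, the hyaluronan-mediated motility receptor that also binds spindle poles, peaked at 12 h, with 1449.8 and 1419 units at 0 h, 1567 and 1574 at 6 h, 2314 and 1926 at 12 h, and 1679.9 and 1661 at 24 h. From 6 to 12 h it rose (0.42 ± 0.11, adjusted p = 0.0341), a call that ended in 10 of 17 alternatives. Hmmr was not called from 12 to 24 h. It was 1.46-fold higher at 12 h than at 0 h (0.55 ± 0.11, adjusted p = 0.00344). At 24 h it stood at 0.22 ± 0.11, which did not pass, and over its 4 tested probe sets the 12 h change ran from 0.33 to 0.81.

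Nusap1, which bundles spindle microtubules near chromatin, dipped at 6 h, with 937 and 1063 units at 0 h, 493 and 742 at 6 h, 1178 and 1043 at 12 h, and 798 and 841 at 24 h. Both 6 h arrays were below all others, though far from each other. The level at 6 h was 1.63-fold below 0 h (-0.70 ± 0.16, adjusted p = 0.0138, but 0.056 when 0 h replicate 1 was left out, 0.114 with replicate 2 of that time left out and 0.0545 without 6 h replicate 1). At 12 h it was 1.8-fold above 6 h (0.85 ± 0.16, adjusted p = 0.0124, but 0.0528 with only those times fitted and 0.0708 without 12 h replicate 1). A dim second Nusap1 probe set, at 72.8 to 177 units, had a log2 change of 0.42 ± 0.27 at 6 h and was not called. Tpx2, the activator of Aurora A on the spindle (-0.41 ± 0.13), Spag5, the kinetochore and spindle protein astrin (-0.33 ± 0.11), and Ckap5, a microtubule polymerase (-0.42 ± 0.12), were lower at 24 h than at 0 h. Each of these calls ended without 0 h replicate 1, with adjusted p = 0.296 for Tpx2, 0.243 for Spag5 and 0.185 for Ckap5. They also ended without 24 h replicate 1, with adjusted p = 0.204, 0.119 and 0.185, and those of Tpx2 and Spag5 without 24 h replicate 2, with 0.0693 and 0.157.

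Centromere and kinetochore genes moved in different ways, with 2 of 7 lower at 6 h, 1 higher at 12 h and 2 lower at 24 h than at 0 h. Cenpa, the histone H3 variant that marks centromeres, had 2163 and 2182 units at 0 h, 1296 and 1354 at 6 h, 2032 and 1470.3 at 12 h, and 1223 and 1293 at 24 h. The arrays of 6 and 24 h were low with little spread, and those of 12 h lay apart. It fell 1.63-fold at 6 h (-0.70 ± 0.13, adjusted p = 0.00513) and 1.71-fold at 24 h (-0.78 ± 0.13, adjusted p = 0.00121). Cenpf, a large protein of the outer kinetochore, had 1004 and 952 units at 0 h, 1167 and 1049.7 at 6 h, 1080.1 and 1108 at 12 h, and 626 and 669.7 at 24 h. Only its 24 h arrays were low, 1.49-fold below 0 h (-0.58 ± 0.11, adjusted p = 0.00165) and 1.67-fold below 12 h (-0.74 ± 0.11, adjusted p = 0.00339). Its dimmer probe set was called higher at 6 h, with 272 and 227 units against 136 and 121 at 0 h (0.85 ± 0.17, adjusted p = 0.00684), and stood at 0.16 ± 0.17 at 24 h. Both Cenpf probe sets were thus higher at 6 h, with only the dimmer called, and their changes at 24 h had opposite signs.

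Cenph, a subunit of the constitutive centromere network, had 576 and 527 units at 0 h, 349 and 397 at 6 h, 644 and 587 at 12 h, and 533 and 577 at 24 h. The 12 h arrays lay above those of the other times. The 6 h arrays lay below all others, 1.45-fold below 0 h on average (-0.54 ± 0.12, adjusted p = 0.0125). That call ended without 0 h replicate 1 (log2 change -0.48), without 0 h replicate 2 (-0.60) and without 6 h replicate 1 (-0.45). The level at 12 h was 1.62-fold above 6 h (adjusted p = 0.0085, but 0.0539 without 12 h replicate 1). Cenpk, of the same network, was also higher at 12 h than at 6 h (0.59 ± 0.12, adjusted p = 0.0178, but 0.0534 without 6 h replicate 1 and 0.115 without 12 h replicate 2). Ndc80, the kinetochore subunit that grips microtubules, was highest at 12 h, with 527 and 437 units at 0 h, 467 and 473 at 6 h, 773 and 627 at 12 h, and 469 and 490.4 at 24 h. From 6 to 12 h it rose (0.55 ± 0.14, adjusted p = 0.0344), a call that ended in 11 of 17 alternatives. From 12 to 24 h it fell (-0.52 ± 0.14, adjusted p = 0.0456), a call that ended in 8 of 17. It was 1.43-fold higher at 12 h than at 0 h (0.52 ± 0.14, adjusted p = 0.0189, but 0.169 without 0 h replicate 2 and 0.136 with 12 h replicate 1 left out), and its level at 24 h was that of 0 h (-0.00 ± 0.14). Its partner Nuf2 (-0.01 ± 0.12 at 24 h) and the kinetochore motor gene Cenpe (-0.31 ± 0.17) were not called in any comparison.

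For chromosome structure, 2 of 7 genes were higher at 12 h than at 0 h and 0 of 7 were called at 24 h. Top2a, the topoisomerase that untangles sister chromatids, had 4773 and 4432 units at 0 h, 5492 and 4933 at 6 h, 6019 and 6456 at 12 h, and 4294 and 3933 at 24 h. The 12 h arrays were the highest and the 24 h arrays the lowest. It was 1.35-fold higher at 12 h than at 0 h (0.44 ± 0.10, adjusted p = 0.00838, but 0.0911 without 0 h replicate 2 and 0.0622 without 12 h replicate 2). At 24 h it was 1.51-fold below 12 h (-0.60 ± 0.10, adjusted p = 0.00665, but 0.0609 without 12 h replicate 2 and 0.0926 without 24 h replicate 2). The condensin ATPase gene Smc4 rose at 12 h (0.32 ± 0.09, adjusted p = 0.0283), a call that ended in 8 of 17 alternatives, 6 of them the loss of 1 array of 0, 12 or 24 h, with adjusted p up to 0.157 without 0 h replicate 1. The condensin gene Ncapg averaged 788 ± 43.3 units at 0 h, 700.3 ± 28.4 units at 6 h, 997 ± 21.9 units at 12 h and 719.8 ± 77.6 at 24 h. It passed in both steps after 6 h (0.50 ± 0.11 up to 12 h, and -0.46 ± 0.11 from there to 24 h), and the calls ended in 7 and 8 of 17 alternatives, with adjusted p up to 0.111 without 12 h replicate 2 and up to 0.252 without 24 h replicate 1. The condensin genes Ncapd2, Ncaph and Smc2 were not called, with 24 h changes between -0.14 and 0.08. Cdca5, which encodes sororin, a protector of sister chromatid cohesion, was at -0.27 ± 0.10 at 24 h against 0 h and did not pass. Its dimmer probe set did, at 300.3 and 320.0 units at 24 h, against 531 and 559 at 0 h (-0.77 ± 0.12, adjusted p = 0.000706). From 12 to 24 h the brighter Cdca5 probe set was called lower (-0.39 ± 0.10, adjusted p = 0.0452), a call that ended in 8 of 17 alternatives.

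In cytokinesis 2 of 4 genes were lower at 24 h than at 0 h. Racgap1, the GTPase-activating partner of Kif23 in the centralspindlin complex, had 2087 and 2078 units at 0 h, 1474 and 1479 at 6 h, 1693 and 1414 at 12 h, and 1309.8 and 1357 at 24 h. Every later array lay below both 0 h arrays. The fall was 1.4-fold at 6 h (-0.49 ± 0.11, adjusted p = 0.00942, but 0.0766 without 0 h replicate 1 and 0.0697 without 0 h replicate 2). At 12 h it was 1.34-fold (adjusted p = 0.0141, but 0.0914 and 0.0848 without 0 h replicate 1 and 2, and 0.113 without 12 h replicate 2), and at 24 h 1.55-fold (-0.63 ± 0.11, adjusted p = 0.000949). A further Racgap1 probe set fell by 0.59, 0.67 and 0.94 on the log2 scale at 6, 12 and 24 h. Both centralspindlin genes, Kif23 and Racgap1, were thus lower at 24 h, and neither was called between 6 and 12 h. Prc1, the microtubule bundler of the central spindle, kept its level to 12 h and then fell, with 2283 and 2084 units at 0 h, 2317 and 1886 at 6 h, 2237 and 2299.8 at 12 h, and 1593 and 1291 at 24 h. Its fall at 24 h was 1.51-fold against 0 h (-0.60 ± 0.13, adjusted p = 0.00438, but 0.0514 without 0 h replicate 1 and 0.0583 with 24 h replicate 2 left out) and 1.57-fold against 12 h (adjusted p = 0.0143, but 0.0646 and 0.0816 without 12 h replicate 1 and 2, and 0.147 without 24 h replicate 2). Anln, the anillin scaffold of the contractile ring, had 2855 and 2821 units at 0 h, 2559 and 2789.6 at 6 h, 3001 and 2556 at 12 h, and 2462 and 2214 at 24 h. Its 24 h arrays were the lowest, yet no comparison passed (-0.28 ± 0.11 at 24 h, adjusted p = 0.0664). Ect2, the exchange factor that activates RhoA for cleavage, was not called and stood at 0.27 ± 0.15 at 24 h, with 1501 and 1601 units at 24 h against 1225 and 1338 at 0 h.

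The remaining mitotic genes were described from a list of 94 other genes of the pathway, of which 62 were tested. At 6 h against 0 h 4 were higher and 8 lower, at 12 h 9 and 1, and at 24 h 9 and 11, with medians of -0.01, 0.12 and -0.08 on the log2 scale. The shares called were 19.4%, 16.1% and 32.3%, near or below the 18.0%, 24.0% and 32.9% of all probe sets. From 6 to 12 h 11 were higher and 0 lower, and from 12 to 24 h 0 were higher and 13 lower (17.7% and 21% called, beside 8.32% and 6.88%), so the counts in these steps ran the same way as those of the 45 genes. The largest rise was Gtse1, a G2 and S phase protein that binds p53, with 1831 and 1508 units at 6 h, 1866 and 1651 at 12 h and 1762 and 1684 at 24 h, against 505 and 484 at 0 h (1.76 ± 0.12 at 24 h, adjusted p = 2.41e-06). Cenpm, of the centromere network, rose at 12 h (0.84 ± 0.11) and 24 h (0.57 ± 0.11), and Ube2c, the ubiquitin-conjugating enzyme of the anaphase-promoting complex, rose at 12 h (0.80 ± 0.10) and was at 0.14 ± 0.10 at 24 h. The largest falls at 24 h were Ska1, a kinetochore coupling protein (-1.01 ± 0.17), and Haus1, a subunit of augmin, which nucleates microtubules inside the spindle (-0.92 ± 0.11). Haus1 was already lower at 6 h (-0.83 ± 0.11) and at 12 h (-0.47 ± 0.11). Mad1l1, of the spindle checkpoint (-0.97 ± 0.24), and Iqgap3, a scaffold protein (-0.67 ± 0.17), were lower at 6 h, and Lin37, of the DREAM and MuvB complexes (0.82 ± 0.19), was higher at 6 h.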

How the data were processed

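The deposited table gives 1 linear intensity per probe set and array. The authors had scaled each array to a common mean, judging from the deposited values: after removing 2% at each end the mean was 500.18 to 500.2 on every array. The software was not given in the sources used here. Without absolute calibration, a change in total mRNA per cell is not visible.

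Of 22690 probe sets, 64 controls were left out. The platform annotation named 1 gene for 20380 of the rest and several for 691, which were not used for naming, and 1555 were unnamed here. Values were taken as log2(intensity + 21.9), 21.9 being the 20th percentile, which shrinks the log2 changes and folds of dim genes. The 13576 probe sets whose mean reached the 40th percentile (6.584) were tested. All 8 arrays entered 1 model (limma 3.58.1, R 4.3.3, lmFit and eBayes with a trend, 4 residual and 7.22 prior degrees of freedom), with 2-sided contrasts and Benjamini-Hochberg adjustment at 0.05. The fit was run on simulated data in which few probe sets changed, by known amounts. That run checks that the code returns those amounts, not how sure the calls here are. A gene stands by its probe set of highest mean. Signal over background and 2 arrays per time limit precision.

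Members and lists were chosen with earlier results of these data known. Values on every array were planned for the largest called changes (5 each way against 0 h, 3 each way per step), Mki67, Foxm1, the brightest gene of each role and genes with opposing probe sets. Those of Ccnb2, Kif20a, Prc1, Ect2 and some dimmer probe sets were added after they were seen. Marker lists were Sertoli, steroidogenic Leydig, peritubular myoid, germ, macrophage and blood, and endothelial. Myoid sums lay between 271 and 510.4 units, macrophage and blood sums between 392 and 566.5, and endothelial sums between 102 and 213. Macrophage and blood sums were highest at 24 h (557 and 566.5, against 428 and 530 at 0 h). So were endothelial sums (181 and 213, against 146 and 148). From 0 to 24 h Cd68 averaged 200 and 310 units, Csf1r 167 and 123, and Pecam1, under the filter, 10.2 and 63.2. The part of these markers in the results was not tested. Alternatives were other offsets, filters and scalings, fits of only the times compared, eBayes without a trend, a replicate block and leaving out each array.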

Additional observations from a re-analysis of the deposited data

How the results depend on the processing

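No called gene changed direction under any of the up to 17 alternatives run for it. Only other offsets, other scalings and the loss of an array of the times compared could alter a log2 change. The remaining alternatives left it the same, so they could not change a direction. Counts moved by over 1.5 times in these settings. Without a filter, 644 probe sets and 7 mitotic genes were called from 6 to 12 h, and 529 and 8 from 12 to 24 h, against 1130 and 12, and 934 and 14. With only the times compared, 240 and 1 were called from 6 to 12 h. Without a variance trend, 606 and 4 were called from 6 to 12 h, and 369 and 5 from 12 to 24 h. Leaving out each array in turn, a fit that assumes the lone array varies like the others, gave 3303 to 6608 probe sets called over the 4 times. It gave 836 to 3005 at 6 h, 1523 to 4148 at 12 h, and 2595 to 5191 at 24 h against 0 h. The steps gave 330 to 1552 and 84 to 1645. For mitotic genes the ranges were 3 to 14, 3 to 11, 10 to 24, 2 to 12 and 1 to 20. Offsets of 5 and 50 units, the stricter filter (60th percentile), quantile normalization and centring kept these counts within 1.5 times. Replicate numbers paired no samples by the labels, and deviations of same-numbered arrays correlated with r from 0.0496 to 0.18. With the replicate block 12, 11 and 21 mitotic genes were called at 6, 12 and 24 h against 0 h, and 13 and 16 in the steps.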
